A study of Mus musculus with 2 samples.

Results

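The long annotated transcripts of the mouse adrenal gland were described from long-read RNA sequencing, in which single reads can run through many exons of 1 RNA. The models were chosen by 3 values of the deposited tables: the class Known, an annotated length of 5000 or more bases, and 5 or more reads summed over both libraries. This left 764 of the 21297 annotated mouse transcript models with reads, from 750 genes, and 1644 models of that length had at least 1 read. The counts and lengths of these 764 models are therefore given as a description. The study held 1 group, adrenal glands of female B6CASTF1/J mice (an F1 hybrid strain of the C57BL/6 and CAST backgrounds) at 25 days, untreated as far as the labels say, with 2 libraries labelled as biological replicates 1 and 2. The labels conflict on whether both libraries came from the same mouse, so each SD (n = 2) and each test between libraries may measure samples of 1 animal. With 1 group there is no comparison of conditions.

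A spliced messenger RNA carries a 5' untranslated region, a coding region and a 3' untranslated region, and in mammals most of the 3' untranslated region lies in the last exon. One gene can end its RNA at several polyadenylation sites, which leaves the splicing as it is but changes the length of the last exon. Libraries of this kind are usually made from the poly(A) end, and a read that stops early lacks exons at the 5' end. In the deposited classes, which follow the program TALON, a Known spliced model has the whole intron chain of an annotated transcript, and an incomplete splice match (ISM) has a contiguous part of it, either the 3' side (suffix), the 5' side (prefix) or another part. A Known read is called full-length below in that sense only.

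The length in the tables is that of the annotated transcript. It equalled the GENCODE M21 length for every one of the models, and the files used here give no read lengths. What a Known read of a spliced model must hold is the stretch from the first to the last splice junction, the span, which leaves out the first and last exons. The sequences at those junctions are shown for the 3 models with the longest span and, for contrast, the most read spliced model. Each window has 15 bases of the upstream exon in lower case and 15 of the downstream exon in capitals, 5' to 3' on the transcript, from the GENCODE M21 transcripts (mm10). Fasn-201 lies on chr11:120805846-120824547 (minus strand), Lrrk2-201 on chr15:91673175-91816120 (plus), 2610507B11Rik-201 on chr11:78261752-78290623 (plus) and Rps15a-204 on chr7:118104372-118116188 (minus).
Fasn-201, exon 1 to 2: ccagagcccagacagAGAAGAGCCATGGAG
Fasn-201, exon 42 to 43: tacaacctctcccagGTGTGTGACGGGAAG
Lrrk2-201, exon 1 to 2: cctactcggaccgcgCCTCCAAGTTATTTG
Lrrk2-201, exon 50 to 51: tccaagaacaaaaagAGATACAATCTTGTT
2610507B11Rik-201, exon 1 to 2: actcttcctaggccgGTGGCTTGTGGTCCG
2610507B11Rik-201, exon 38 to 39: gctctggttgcccagGTAATCAAAGAAAAA
Rps15a-204, exon 1 to 2: catcttccctcgccgCCACCATGGTGCGAA
Rps15a-204, exon 4 to 5: ttcacgtcagtttggCTTCATTGTGCTGAC
A full-length read of Fasn-201 runs through both of its windows, 7386 bases apart on the transcript. The windows of Lrrk2-201 are 7305 bases apart and those of 2610507B11Rik-201 are 6457 apart. Those of Rps15a-204, a model of 5179 bases, are 304 bases apart.

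The length of these models sat mostly in the last exon. The median model had 5890.5 bases and 11.5 exons (range 1 to 67), with a first exon of 299 bases, a span of 1366.5 bases and a last exon of 4236 bases. The last exon took a median of 72.1% of the model, and over 50% in 583 of the 764 models (76.3%). In the 748 protein-coding models the median coding region was 1797 bases and the median 3' untranslated region 3832 bases. The 3' untranslated region was longer than the coding region in 559 of them (74.7%). A coding region of 5000 or more bases was found in 23 models. The span reached 5000 bases in 16 models (2.09%) and 4000 bases in 59, and it was under 1000 bases in 257 spliced models.

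**Figure D1:**
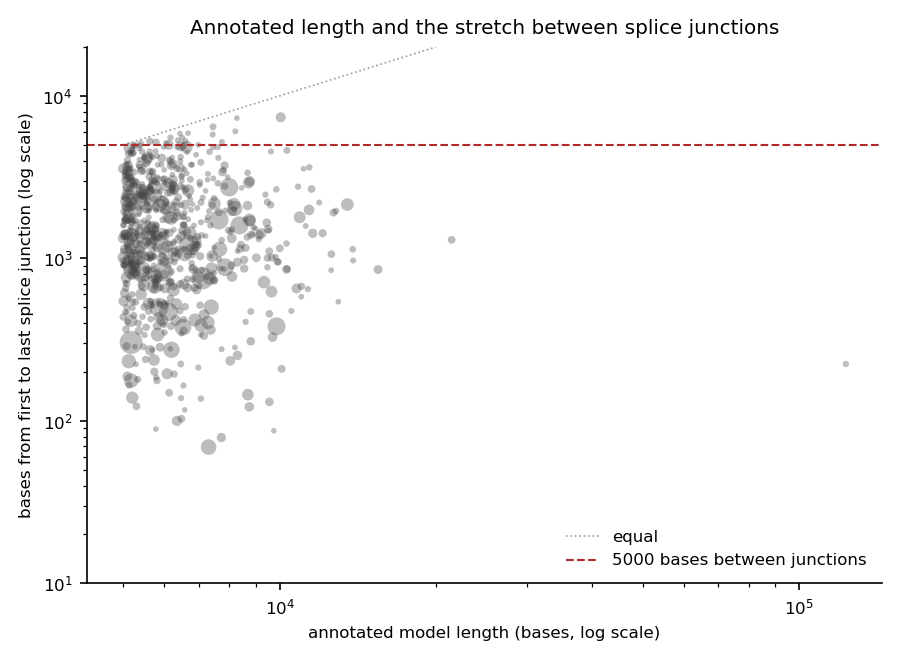
Annotated length (x axis, bases, log scale) against the span from first to last splice junction (y axis, bases, log scale) for 717 spliced models, with larger points for more reads; 24 models of 2 exons have no span and are not drawn. Most points lie far under the dotted line of equality, and 16 lie at or above the dashed line at 5000 bases.

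Depth set what could be seen. Replicate 1 had 426150 reads, 397176 of them on annotated mouse genes, and replicate 2 had 770041 and 712032. Levels are given as CPM, reads per 1000000 reads on annotated mouse genes. A count of 0 allows up to 3 reads, or 7.55 CPM in replicate 1 and 4.21 CPM in replicate 2. Intervals and these limits cover counting error only, since reads without molecular identifiers are not independent molecules. All 6 cortex markers and all 5 chromaffin markers were read in both libraries, from 776.65 to 28037.9 CPM for the cortex and from 233.1 to 5335 CPM for chromaffin cells, and the 3 kidney markers had 0 reads. The 4 liver markers summed to 91 reads in replicate 1 and 1 in replicate 2.

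The 20 most read models held 24.1% of the 25928 reads on the 764 models, and their largest span was 2741 bases. Their median span was 628.5 bases. Rps15a-204, from a gene for a protein of the small ribosomal subunit, led with 183 reads in replicate 1 and 394 in replicate 2, 507 ± 65.5 CPM (SD, n = 2). Ppp2ca-201, the catalytic subunit of protein phosphatase 2A (chromosome 11 from 52098681 to 52127778, 7 exons), had 234 and 300 reads, 505 ± 119 CPM. Replicate 1 was the lower library for Rps15a-204 and the higher one for Ppp2ca-201.

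G3bp1-201, an RNA-binding protein of stress granules, had 165 and 248 reads (382 ± 47.5 CPM). Ppp1cb-201, a catalytic subunit of protein phosphatase 1, had 126 and 251 reads, and Hnrnpu-201, a nuclear RNA-binding protein, had 128 and 232. The level of Hnrnpu-201 was 324 ± 2.52 CPM, so its libraries were nearly equal. Sod2-201, the manganese superoxide dismutase of mitochondria, had 122 and 224 reads, and Rab11b-201, a GTPase of recycling endosomes, had 115 and 211. Eif4g2-213, a translation initiation factor with 22 exons, had the largest span of the 20 and stood out with 159 and 156 reads, nearly equal counts in libraries of unequal depth.

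Among the other coding models of these 20, H13-204, signal peptide peptidase, had 106 and 197 reads. Glo1-206, a glyoxalase, had 110 and 187 reads on a model of 9865 bases whose last exon alone is 9291 bases. Sdf4-201, a calcium-binding protein of the Golgi, had 103 and 193 reads. Soat1-207, which esterifies cholesterol for storage and is abundant in the adrenal cortex, had 122 and 172 reads (274 ± 46.4 CPM) on 16 exons. Cdc37-201, a kinase co-chaperone of HSP90, had 89 and 191 reads. Rab18-205, a GTPase of lipid droplets and the endoplasmic reticulum, had 74 and 170, Dnajc15-202, a mitochondrial co-chaperone, had 67 and 158, and Scd2-201, a stearoyl-CoA desaturase, had 104 and 110. Mrpl17-202, of the mitochondrial ribosome, had 74 and 123 reads with a span of 69 bases, and Zfand5-205, a zinc finger protein, had 55 and 132.

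**Figure D2:**
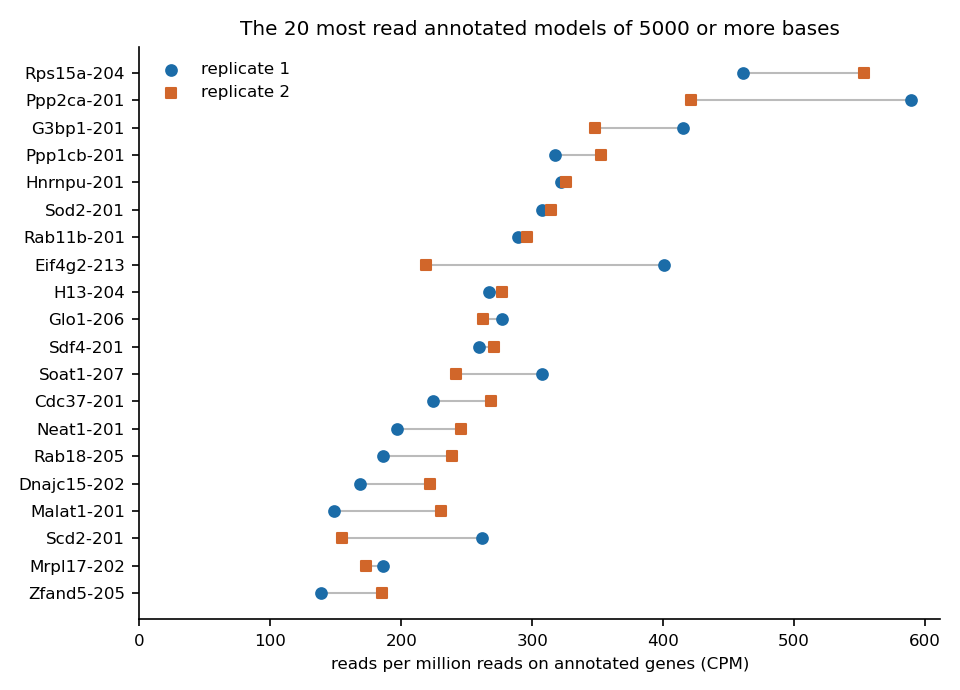
Level (x axis, CPM) of the 20 most read long models (rows) in replicate 1 (circles) and replicate 2 (squares). Rps15a-204 and Ppp2ca-201 have the highest means, and Eif4g2-213 lies at 400.3 CPM in replicate 1 and 219 CPM in replicate 2.

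Models with a long span were read rarely. The 16 with 5000 or more bases between junctions held 188 reads, 0.725% of the reads on the 764 models, with a median of 8 reads each and a range of 5 to 52. Over the 764 models the Spearman correlation of reads with the span was -0.20 and with the annotated length 0.04, a description over models that share both libraries. Only Col4a1-201 had both 100 or more reads and a span of 3000 or more bases. The median was 8 reads for the 59 models with a span of 4000 or more and 15 for the others, though both medians were limited by the minimum of 5 reads that chose the models.

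Fasn-201, fatty acid synthase, had the longest span and by far the most reads of the 16. It had 20 and 32 reads (47.6 ± 3.84 CPM) across 43 exons, 10050 bases as annotated, and it was not past the threshold between the libraries. Lrrk2-201, a large protein kinase with a GTPase domain, had 1 and 4 reads across 51 exons. 2610507B11Rik-201 had 6 and 8 reads across 39 exons. Cacna1h-201, a T-type calcium channel subunit, had 0 and 6 reads.

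Of the other 12, laminin chains Lamb2-201 (7 and 12 reads), Lamb1-201 (4 and 14) and Lama4-201 (2 and 6) belong to the basement membrane. Ift172-201 (3 and 5 reads) carries cargo in cilia, and Ckap5-204 (1 and 4) is a microtubule polymerase. Myh9-201 (1 and 6 reads), non-muscle myosin, has a span of 5784 bases. Plxnb2-202, a semaphorin receptor, had 5 and 2 reads. Ltn1-201, a ubiquitin ligase of stalled ribosomes, had 2 and 6 reads, and Atg2a-201, a lipid transfer protein of autophagy, had 2 and 5. Sbf1-205 (2 and 8), Mcm3ap-201 (3 and 2) and Sipa1l2-202 (5 and 4) complete the set. None of the 12 was past the threshold between the libraries given below, and only Lamb2-201, Lamb1-201 and Sbf1-205 had the 10 reads that the test asked for.

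Of the 10 models with the most exons 5 were of collagens. Col5a3-201 had 67 exons, a span of 4988 bases and 16 and 32 reads. Col4a1-201 had 52 exons and 38 and 66 reads (94.2 ± 2.09 CPM), and Col4a2-201, whose product assembles with that of Col4a1, had 48 exons and 15 and 38 reads. Col1a1-201 and Col3a1-201, fibrillar collagens with 51 exons each, had 10 and 26 reads and 27 and 49 reads. The other 5 had few reads. Lrrk2-201 (51 exons) and Ckap5-204 (44 exons) had 1 and 4 reads each, Ift172-201 (48 exons) had 3 and 5, Ttc37-205 (45 exons) had 2 and 4 and Mroh1-202 (44 exons) had 4 and 6. Reads by exon number had medians of 17 for the 23 models of 1 exon, 15 for 126 models of 2 to 5 exons, 19 for 190 of 6 to 10, 12.5 for 252 of 11 to 20, 10 for 158 of 21 to 40 and 18 for 15 models of 41 or more exons. The median annotated length was near 6000 bases in each of these groups, from 5796 to 6360, while the median span rose from 283.5 bases with 2 to 5 exons to 4991 bases with 41 or more.

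The models with the greatest annotated length had short spans. D10Wsu102e-201 is annotated at 123179 bases in 4 exons (chromosome 10 from 83360221 to 83488505), of which the last exon takes 122802, and its span is 224 bases. It had 7 and 2 reads. Hnrnpr-207, of an RNA-binding protein, is annotated at 21452 bases with a last exon of 20029, and had 5 and 17 reads. Serbp1-201 (15474 bases) had 21 and 14 reads, BC004004-215 (13859) 6 and 2, Zfp704-201 (13834) 6 and 5, Pnpla8-201, a calcium-independent phospholipase (13507), 42 and 64, Styx-205 (12974) 2 and 3, and Hook3-201, a dynein adaptor (12836), 5 and 7. The largest span among these 8 spliced models was 2145 bases, in Pnpla8-201.

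Models of 1 exon numbered 23 and have no junction, so the tables do not show how much of such a model a read held. Neat1-201, the nuclear RNA that scaffolds paraspeckles (chromosome 19 from 5824708 to 5845478), had 78 and 175 reads on an annotated length of 20771 bases, 221 ± 34.9 CPM. Malat1-201, a nuclear RNA of splicing speckles on the same chromosome, had 59 and 164 reads. 9330162G02Rik-201, a long non-coding RNA annotated at 30942 bases, had 5 and 15 reads. Coding 1-exon models were led by Nsmce3-201, of the SMC5/6 complex (32 and 54 reads), Purb-201, a single-strand binding protein (22 and 55), Fem1a-201 (17 and 21), and Fzd8-201, a Wnt receptor (11 and 20). In all 16 of the 764 models were not annotated as protein-coding, 5 of them as lincRNA and 6 as retained introns. Among these 1700020I14Rik-202 had 12 and 32 reads and 1810026B05Rik-203 had 9 and 17.

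Of all 4190 genes with an annotated transcript of 5000 or more bases, 1538 (36.7%) had a read on one and 750 (17.9%) were genes of the 764 models. Differences between the gene lists that follow, or from all genes, were not tested. Of the 20 matrix and basement membrane genes, 18 have an annotated transcript of 5000 or more bases, 12 had a read on one and 8 were among the 764 models, with a median of 27.5 reads. These 8 are the Col4a1, Col4a2, Col3a1, Col1a1, Lamb1, Lamb2, Lama4 and Lamc1 models. Lamc1-201 had 0 and 8 reads. Of the 29 cytoskeleton and motor genes all 29 have such a transcript, 10 had a read on one and 4 were members: Kif5b-201, a kinesin (25 and 26 reads), Myh9-201, Vcl-201 (3 and 4) and Iqgap1-201 (1 and 5).

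Among 22 lipid metabolism genes 12 have a long transcript and 3 were members: Soat1-207, Fasn-201 and Srebf2-201, the transcription factor of cholesterol synthesis (11 and 12 reads). Of 24 chromatin and transcription genes, all with a long transcript, 8 had a read on one and 2 were members, Ncoa1-201 (4 and 6 reads) and Smarca4-201 (4 and 2). One of 12 ubiquitin ligases with long transcripts had such reads, Nedd4-201 with 52 and 79. In the signalling list 4 of 17 genes were members: Igf1r-201 (5 and 5), Irs2-201 (4 and 6), Pik3r1-202 (4 and 4) and Rock1-201 (3 and 4). Membrane traffic gave 3 of 15 (Cltc-202 with 6 and 13 reads, Snx27-201 with 0 and 6, Sort1-201 with 2 and 3), channels and transporters 2 of 15 (Cacna1h-201 and Slc12a2-201), RNA processing and translation 1 of 11 (Eif3a-201, 10 and 16), imprinted genes 1 of 7 (Grb10-201, 8 and 11) and non-coding RNA 2 of 7 (Neat1-201 and Malat1-201). Of the 22 adrenal cortex and medulla genes 7 have a transcript of 5000 or more bases, and 0 had a read on one.

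The share of annotated transcripts with a read rose and then fell, both by annotated length and by span, and the difference between the 2 was not tested. Of all GENCODE M21 transcripts, 4686 of the 73275 under 1000 bases had a read, as did 20.2% of those of 1000 to 2000, 25.3% of 2000 to 3000, 28.6% of 3000 to 4000, 31.1% of those of 4000 to 5000, 27.2% of those of 5000 to 7000 (1215 of 4466) and 16.7% of those of 7000 or more (429 of 2574). Classed by span, 13.7% of spliced transcripts with under 1000 bases between junctions had a read, 30.8% with 1000 to 2000, 27.8% with 2000 to 3000, 20.7% with 3000 to 4000, 13.8% with 4000 to 5000, 9.82% with 5000 to 7000 and 1.33% with 7000 or more (7 of 525). With at least 5 reads the last 2 classes held 14 and 2 transcripts. The longest span with any read was 9009 bases, in Lama1-201, a laminin chain, with 0 and 1 reads. Mtor-202, Tln1-201 and Cnot1-202, with spans of 7648, 7533 and 7225 bases, had 1 read in each library.

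**Figure D3:**
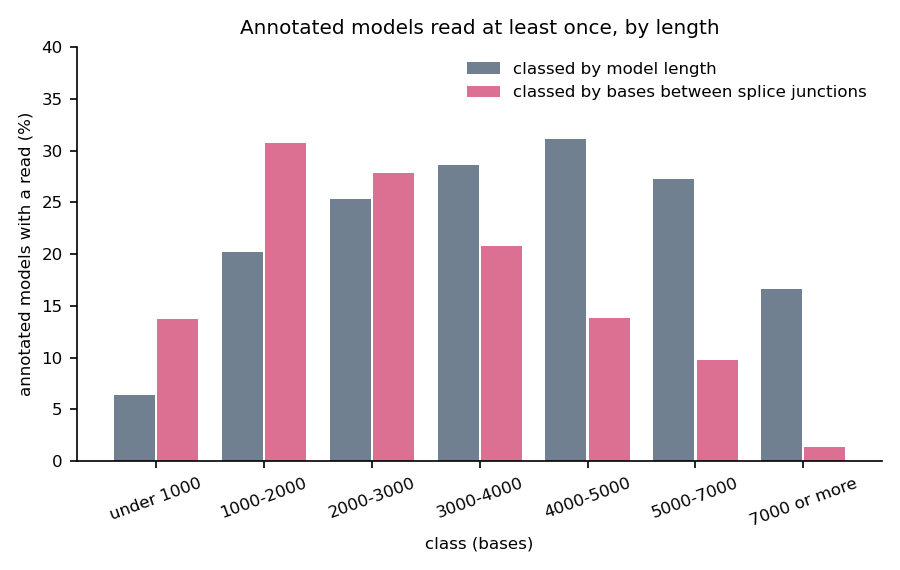
Share of annotated transcripts with at least 1 read over both libraries (y axis, percent, from 0) in 7 classes (x axis, bases), classed by model length or by the span between splice junctions of spliced models. By length the share is highest at 4000 to 5000 bases and 16.7% at 7000 or more, and by span it is highest at 1000 to 2000 bases and 1.33% at 7000 or more.

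Models of 5000 or more bases, with no minimum of reads, took 3.36% of Known reads in replicate 1 (10296 of 306140, 95% Wilson interval 3.30 to 3.43) and 3.16% in replicate 2 (17310 of 548362, 3.11 to 3.20), 3.26% ± 0.15 (SD, n = 2). The share was 1.07-fold higher in replicate 1 (Fisher's exact test on the reads, two-sided, p = 2.4e-07). The shortest models went the other way: those under 1000 bases took 17.0% and 19.3%. These tests compare 2 libraries, not conditions.

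The full-length share of protein-coding genes fell with length, though it was nearly level from 1000 to 4000 bases. A gene was classed by its longest protein-coding transcript, and Known reads of all its annotated transcripts were counted, shorter ones too. Genes of 5000 or more bases had 13523 and 23055 Known reads, where all annotated models of that length had 10296 and 17310. In genes whose longest protein-coding transcript is under 1000 bases, Known reads made up 94.3% ± 0.93 of Known and ISM reads (SD, n = 2). The share was 89.3% ± 0.13 in genes of 1000 to 2000 bases, 90.4% ± 0.10 at 2000 to 3000, 89.0% ± 0.75 at 3000 to 4000 and 84.6% ± 1.47 at 4000 to 5000. It was 79.0% ± 1.62 in the 1615 genes of 5000 to 7000 bases and 71.7% ± 3.23 in the 1113 genes of 7000 or more. In this last class replicate 1 had 73.9% (72.8 to 75.1) and replicate 2 69.4% (68.4 to 70.3), so the libraries differed by less than the step from the shortest to the longest class.

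Within genes of 5000 or more bases, the share also fell with the span. The span was divided into more classes than the length, so the ranges cannot be set against each other. This division was chosen after the data were seen. With under 500 bases between junctions the share was 95.6% ± 0.71, with 500 to 1000 it was 91.04% ± 0.05, with 1000 to 2000 86.9% ± 2.68, with 2000 to 3000 75.4% ± 2.97, with 3000 to 4000 51.1% ± 3.56 and with 4000 to 5000 41.1% ± 1.38. In the 437 genes with a span of 5000 or more it was 34.0% in replicate 1 (31.6 to 36.5) and 32.7% in replicate 2 (31.0 to 34.4). Here too the Known reads of a gene include those on its transcripts with a shorter span. These 437 genes had 490 and 931 Known reads. All annotated models with a span of 5000 or more had 324 over both libraries, so most of the Known reads did not cross such a span. Genes under 5000 bases fell along the same axis, to 80.7% ± 1.87 at 2000 to 3000 and 73.4% ± 3.12 at 3000 to 4000, higher than the long genes of those spans. Suffix models, which lack 5' exons, held 72.0% and 70.5% of the ISM reads in the long genes with a span of 5000 or more. They held a like share, 73.4% and 72.3%, in all genes under 5000 bases. The number of junctions also grows with the span, and its part was not tested.

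**Figure D4:**
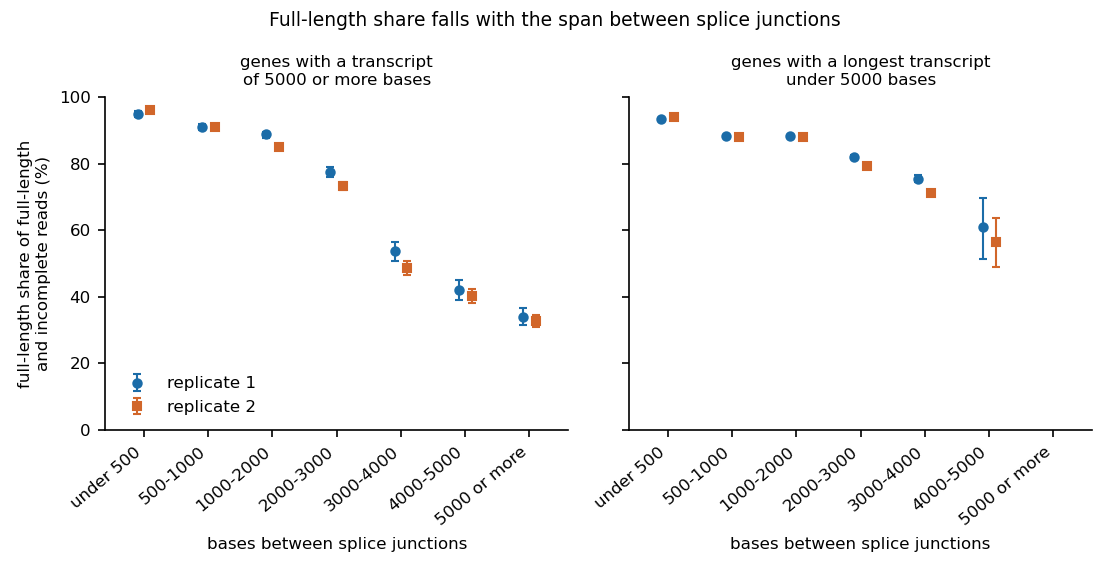
Known reads as a percentage of Known and ISM reads (y axis) by the span of the gene's longest protein-coding transcript (x axis, bases), in genes with a transcript of 5000 or more bases (left) and in shorter genes (right), with 95% Wilson intervals. Known reads of every annotated transcript of a gene are counted, also those with a shorter span. Both libraries fall from above 90% at short spans to 34.0% and 32.7% in long genes with a span of 5000 or more.

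The same order held for whether a long model was read at all. Among 1304 genes with a protein-coding transcript of 5000 or more bases and at least 10 reads of any class, 987 (75.7%) had a Known read on a long model. Where that transcript's span was under 1000 bases, 278 of 307 genes had one, and where it was 5000 or more, 63 of 152 (41.4%) did. In 54 of those 152 genes no read matched any annotated transcript, against 6 of the 307.

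The 750 genes of the 764 models had 11280 Known and 1874 ISM reads in replicate 1 and 19238 and 3598 in replicate 2. Their full-length shares were 85.8% and 84.2%, 85.0% ± 1.07 (SD, n = 2), a description because at least 5 Known reads chose them. Suffix models held 71.1% and 69.01% of their ISM reads, prefix models 13.5% and 13.1%. In the genes of the 16 models with a span of 5000 or more the share was 31.3% (71 of 227 reads, 25.6 to 37.6) and 29.9% (130 of 435, 25.8 to 34.3), with 89.1% and 87.2% of ISM reads on suffix models. Fasn alone gave 72 and 138 of their 156 and 305 ISM reads, and 71 and 136 of the 139 and 266 on suffix models.

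Single genes ranged from nearly all full-length to nearly none. Rps15a had 191 Known and 3 ISM reads in replicate 1 and 401 and 3 in replicate 2, and Ppp2ca had 234 and 9, then 300 and 11. Fasn had the most ISM reads, 72 beside 22 Known reads in replicate 1 and 138 beside 34 in replicate 2, full-length shares of 23.4% (16.0 to 32.9) and 19.8% (14.5 to 26.3). Suffix models held 71 and 136 of those ISM reads. Col5a3 was similar, with 16 Known and 59 ISM reads, then 32 and 111. Col4a1 had 38 and 40, then 66 and 55, and Col4a2 had 15 and 41, then 38 and 61. Each of these 3 collagens had shares whose intervals overlapped between the libraries.

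Other genes with many ISM reads were Aars, the alanyl-tRNA synthetase (61 Known and 24 ISM reads, then 88 and 78), Eif4g2 (159 and 39, then 156 and 66), Gpam, the first enzyme of glycerolipid synthesis (27 and 18, then 25 and 50), Leng8 (4 and 20, then 3 and 62) and Fosl2, an AP-1 transcription factor (17 and 27, then 9 and 46). The ISM reads of Fosl2 came almost wholly from a 1-exon model of 5172 bases, the annotated length of the last exon of Fosl2-201, with 27 and 45 reads. In Leng8 1-exon models held 14 and 48 of the ISM reads.

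The deposited new models of the same genes give the ends of models, which need not be the ends of single reads. Of the 764 models 627 had at least 1 new spliced model (ISM, or with a new combination of junctions or a new splice site) that held their last intron, 4521 new models over both libraries. Of these, 1135 (25.1%) ended exactly at the last annotated base and 2669 (59.04%) ended over 1000 bases before it. The 1135 leave out models that ended a few bases off and 60 that ran beyond it. The median of the 4521 was 1856 bases before it. Their median last exon was 938 bases, where that of the matching annotated models was 3296 bases. Replicates gave like values: 23.3% and 26.3% at the annotated end, and 61.2% and 57.6% over 1000 bases before it. Models often shared 1 end base: of 231 annotated models with an early end shared by 3 or more new models, in 170 every one of those ended at the same base. Their ends therefore cannot be counted as independent, and the files do not give the ends of the Known reads themselves.

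The longer the annotated last exon, the fewer new models ended exactly at its last base. With a last exon under 1000 bases 72.1% did, with 1000 to 2000 bases 41.9%, with 2000 to 3000 26.8%, with 3000 to 5000 14.9% and with 5000 or more 1.44% (13 of 900 models from 169 annotated models). In this last class the median annotated last exon was 6165 bases and the median of the new models 826 bases. The longest last exon of any of the 4521 was 6214 bases, in a model matched to Zfp148-202. For 338 of the 627 every new model ended over 1000 bases early, and for 223 at least 1 ended exactly at the last annotated base. Of the 51 new models of Col4a1-201 only 1 did, but their median was 8 bases before it. Some of the 627 had only 1 new model. Among the 300 with 5 or more new models, every one ended over 1000 bases early for 126.

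**Figure D5:**
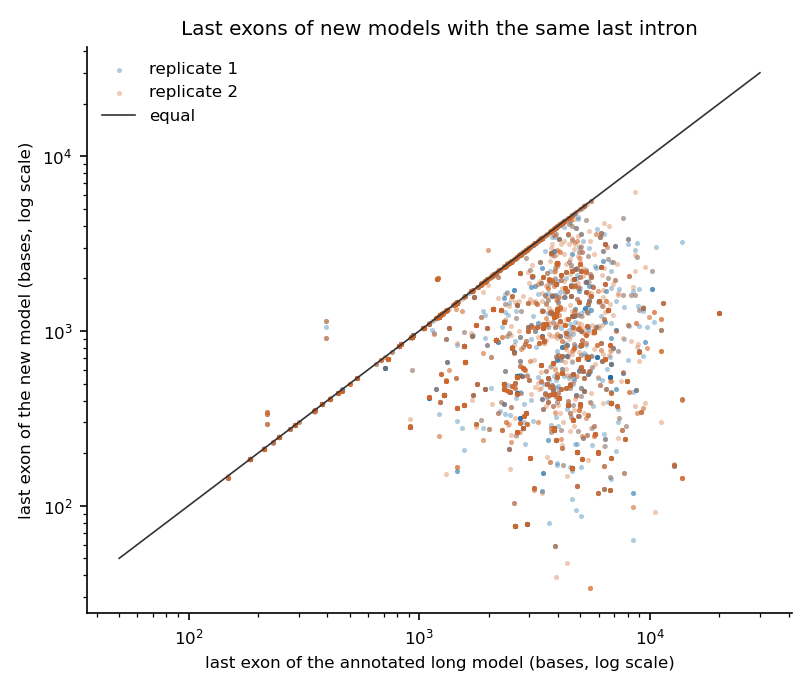
Last exon of 4521 new spliced models (y axis, bases, log scale) against the last exon of the annotated long model with the same last intron (x axis, bases, log scale), by library. Points on the line end where the annotation does, and with an annotated last exon of 5000 or more bases 1.44% of models do.

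The most read models were among those whose new models ended early. Of the 20 most read, 17 had such new models, 258 in all, and 246 of these ended over 1000 bases before the annotated end, with a median of 4518 bases. These 17 have long annotated last exons, from 3837 bases in Sdf4-201 to 9291 in Glo1-206. Over all new models, 80.3% ended that early with an annotated last exon of 3000 to 5000 bases. With one of 5000 or more, 98.3% did. A part of the read number was not tested. All 6 of Rps15a-204 ended 4692 bases before it, at the annotated end of a shorter Rps15a transcript, with a last exon of 130 bases in place of 4822. Of Ppp2ca-201 the 6 models of replicate 1 ended 5169 bases before and the 4 of replicate 2 ended 5041 before. All 22 of G3bp1-201 ended between 3951 and 4691 bases before. All 11 of Scd2-201 and 1 of the 15 of Sdf4-201 ended at the annotated end. Of Soat1-207, 28 of 33 ended 5268 bases before, again at another annotated end.

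The new models of the long-span models did not all end early, but most of these annotated models have a short last exon. A last exon under 1000 bases, such as 288 in Lamb1-201 or 820 in 2610507B11Rik-201, cannot end over 1000 bases early. The contrast with the most read models was therefore partly fixed by the annotation. Over all annotated models with a last exon under 1000 bases, 72.1% of new models ended exactly at the last annotated base. In the genes of the 16 with a span of 5000 or more, 146 of 259 new models (56.4%) ended at the annotated end and 62 over 1000 bases before it, 61 of these in Fasn. Of the 65 new models of Fasn, 61 ended 1259 bases before, at another annotated end. All 23 of 2610507B11Rik-201, all 21 of Lamb1-201 and all 13 of Myh9-201 ended where the annotation does.

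The 30 bases up to 4 of these early ends are shown with the polyadenylation hexamer in capitals where there is one, from the GENCODE M21 transcripts (mm10). The annotated end of Rps15a-204 stands beside its early one. These were chosen after their values were seen, as the early ends of much-read models with a hexamer. They lie at chr7:118109064-118109093 (minus strand), chr7:118104372-118104401 (minus), chr11:52122580-52122609 (plus), chr1:156429793-156429822 (minus) and chr8:111055541-111055570 (plus), in the order shown, all in 3' untranslated regions.
Rps15a-204, early end: agcataAATAAAaagcctttgtggactgtg
Rps15a-204, annotated end: tgAATAAAataaagcattttttttaaaacc
Ppp2ca-201, early end of replicate 1: gcagtgttttcatAATAAActtgagaactg
Soat1-207, early end: gatgaAATAAAtgactatgtgatcatttgt
Aars-201, early end: gcagaaAATAAAaaggaccatgtgcaatac
All 41 new models of Aars-201 ended within 10 bases of this last position, 2094 bases before the annotated end and at no other annotated end.

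The hexamers AATAAA or ATTAAA, searched on the transcript strand only, lay in the 40 bases up to the end at 592 of 732 annotated ends (80.9%) and at 437 of 852 early ends (51.3%). Of all positions over 1000 bases before the annotated end in the last exons of all 732 models, with or without an early end, 4.02% had one. Some of the early ends are annotated ends of other transcripts, and the hexamer was not counted apart for these. Over all 4521 new models, 2013 ended within 10 bases of another annotated transcript end. A run of 20 bases with 12 or more A lay just downstream of 9.27% of the early ends and of 1.42% of all such positions. Of the 231 annotated models with a shared early end, 147 had it within 10 bases of another annotated transcript end, and 200 had models from both libraries there.

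Few of the long models differed between the libraries. Of 8223 annotated models with at least 10 reads, 1.86% passed the threshold (two-sided exact binomial test against library totals, Benjamini-Hochberg adjusted p under 0.05). Of the 495 long models tested 7 passed (1.41%), a share near that background. Of the long models 6 were higher in replicate 1, a direction called for 1.19% of all models, and 1 in replicate 2, called for 0.669%. Without adjustment 43 of the 495 (8.69%) and 956 of the 8223 (11.6%) had a p under 0.05. The median log2 ratio of replicate 2 over replicate 1 was -0.11 over the 495 and 0.01 over all models tested. In whole tissue, fewer cells of a type and less RNA per cell cannot be told apart.

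Eif4g2-213 fell from 400.3 CPM in replicate 1 to 219 CPM in replicate 2, 1.83-fold higher in replicate 1 (log2 ratio -0.87, exact interval -1.20 to -0.54; exact test, adjusted p = 2.8e-05). Ppp2ca-201 was 1.40-fold higher in replicate 1 and Scd2-201 1.70-fold (exact test, adjusted p = 0.012 for each). Ppp2ca-201 no longer passed with TMM scaling (adjusted p = 0.058, exact test). Pdcd6ip-201, an adaptor of endosomal sorting, had 61 and 56 reads and was 1.95-fold higher. C3-201, complement component 3, had 43 and 33 reads on 41 exons and was 2.33-fold higher (exact test, adjusted p = 0.020). With no minimum of reads, Pdcd6ip-201 (adjusted p = 0.058) and C3-201 (adjusted p = 0.051) no longer passed the exact test. C3 is made mainly in liver, and the liver markers Alb (32 and 1 reads), Apoa1 (23 and 0), Apoa2 (21 and 0) and Ttr (15 and 0) were also higher in replicate 1. Their part in the C3 result was not tested.

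The largest ratios rested on few reads. Hspa4l-208, a chaperone of the HSP110 family, had 13 reads in replicate 1 and 3 in replicate 2 (log2 ratio -2.79, interval -5.41 to -1.09). Hnrnpd-211, an RNA-binding protein that controls mRNA decay, had 3 and 39 reads, 7.55 and 54.8 CPM, and was the one higher in replicate 2 (log2 ratio 2.65, interval 1.20 to 5.20; exact test, adjusted p = 0.0036). None of the 7 belongs to one of the 12 gene lists.

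One of the genes differed in its full-length share. Over all 6196 genes with at least 20 Known and ISM reads, 0.597% passed the same threshold in Fisher's exact test (two-sided), and of the 421 genes of long models 1 did. Without adjustment 20 of the 421 (4.75%) and 325 of the 6196 (5.25%) had a p under 0.05. Slc6a6, the taurine transporter, had 46 Known and 11 ISM reads in replicate 1 (80.7%, 68.7 to 88.9) and 99 and 96 in replicate 2 (50.8%, 43.8 to 57.7), with an adjusted p of 0.013 by the exact test. Of the 96 ISM reads 81 lay on a 1-exon model of 4153 bases, the length of the last exon of Slc6a6-201. In replicate 1 a 1-exon model of 5364 bases, longer than that last exon, had 33 reads. It was deposited in the class Genomic and so was outside the share. With spliced models only, the adjusted p for Slc6a6 was 1 by the exact test. Scd2 showed the mirror image, with 36 reads on a 1-exon ISM model in replicate 1 and 38 on a Genomic one in replicate 2, and its shares of 68.0% and 85.9% did not pass (adjusted p = 0.065 by the exact test).

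The thresholds that chose the models cut through a continuous range. Just inside the length limit lay Fbxw8-201 (5000 bases, 20 and 46 reads), Mrpl19-201 (5000 bases, 5 and 14) and Stam-202 (5000 bases, 0 and 6). Just outside lay Tom1l2-206 (4999 bases, 6 and 6 reads), Abcb1a-201 (4997, 2 and 4) and Rfc2-201 (4995, 20 and 33). At 5 reads in all there were 73 models, the longest being Styx-205, Rsf1-201 (11124 bases) and Vcpip1-201 (9749 bases), and at 4 reads there were 95, the longest being Tbp-211, Fzd3-202 and Itga1-201 (12794, 12734 and 10967 bases). Of the 764 models 740 were read in both libraries, 22 had 0 reads in replicate 1 and 2 had 0 in replicate 2.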

How the data were processed

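The unit is the read count. The authors deposited for each library a table of whole-number counts by transcript model, and per the file headers they assigned each library separately to GENCODE M21 models (mm10) and to models with TALON identifiers. The aligner and read filters are not given in the sources used here. Gene and exon positions were compared with GENCODE M21, and the exons of the chosen models were identical in all 1504 model and library pairs. Spike-in reads were left out. Spans, last exons and coding regions came from that annotation. Tests were two-sided exact binomial tests (10 or more reads) and Fisher's exact tests (20 or more reads) with Benjamini-Hochberg adjustment over all models or genes in SciPy 1.17.1 (Python 3.11.15), and edgeR 4.0.16 gave TMM factors. Log2 ratios had 0.5 added to each count. Both tests were tested on simulated data. The p-values measure the spread expected from counting between 2 libraries. The members, gene lists and tests were chosen with earlier results of these data known. Named models were those with most reads, length, exons, span or ISM reads, those past a threshold, those next to a limit and those on 12 gene lists.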

Additional observations from a re-analysis of the deposited data

How the results depend on the processing

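The number of long models depends on how long is defined. It was 764 as reported, 495 with at least 10 reads, 1801 from 4000 bases, 353 from 6000 bases and 16 with a span of 5000 or more. Leaving out 1 library gave 448 to 589. The share of Known reads was 3.26%, 9.92% from 4000 bases, 1.69% from 6000 bases and 0.0377% for a span of 5000 or more, where the log2 ratio between libraries turned from -0.09 to 0.060 (p = 0.77, Fisher's exact test); without 1 library it was 3.16% to 3.36%. The full-length share in long genes, 76.7%, was 70.4% with the median transcript length, 56.0% of all reads, 84.7% as the median over genes, 78.8% without 1-exon models, 33.3% for spans of 5000 or more and 93.04% for spans under 1000 (the last 2 chosen after seeing the data), and 75.2% to 78.2% without 1 library. In the genes of the long models, 85.0% became 69.2% of all reads, 86.6% without 1-exon models and 82.9% with only long transcripts, and 84.2% to 85.8% without 1 library.

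Of the 7 models that differed, 7 passed with totals of Known reads, 6 of 8 with TMM factors (with Sptlc2-201 and Malat1-201 added) and 5 of 5 with no minimum of reads (without C3-201 and Pdcd6ip-201). The 1 gene with another full-length share became 0 with spliced models only, and it was also 1 with at least 10 reads. No paired analysis was possible because there is 1 group. Depth limits the models with a span of 5000 or more: 11 of the 16 had under 10 reads and were not tested between libraries.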

Other observations

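Unannotated spliced models carry lengths built from their own deposited exons, where an annotated model carries its annotated length. Of 32210 such models in replicate 1 the median length was 2186 bases and the 99th percentile 6046, and of 51007 in replicate 2 they were 2189 and 6078. Models of 5000 or more bases numbered 1122 (3.48%) and 1812 (3.55%), and 1007 and 1533 of them had 1 read. The longest were an unannotated model of Plxnb1, a semaphorin receptor, with 21 exons and 10495 bases in replicate 2, and one of Acaca, acetyl-CoA carboxylase, with 56 exons and 9415 bases in replicate 1, each with 1 read. Usp9x, a deubiquitinase, had one of 46 exons and 9613 bases.

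The most read of the long unannotated models belonged to Oxtr, the oxytocin receptor, with 40 reads in replicate 1 (5043 bases) and 79 in replicate 2 (5009 bases) on models of 4 exons with a new splice site. Models of Cyp11b1, the 11-beta-hydroxylase of corticosterone synthesis, followed, and these were of different kinds in the 2 libraries. In replicate 1 it was a model of 9 exons and 5748 bases with a new splice site and 34 reads. In replicate 2 it was a prefix ISM of 8 exons and 5038 bases with 41 reads. A suffix ISM of Cyp11b1, of 8 exons and 5454 bases, had 20 reads in that library. In the genes of the long annotated models 12.6% and 12.5% of the new spliced models were of 5000 or more bases.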
